A study of Homo sapiens with 8 samples.

Results

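The genes described here are 39 genes of glycolysis and of the response to low oxygen, named in a list by symbol and then looked up among the 34792 genes to which the deposited transcripts could be summed. Of the 39 genes, 17 encode enzymes of glycolysis from hexokinase to lactate dehydrogenase, and the other 22 encode transporters, regulators, HIF subunits and targets of HIF. After a filter on low counts, 37 of the 39 were among the 15993 genes tested. CA9, a membrane carbonic anhydrase that is induced by HIF, had no reads in 7 of 8 libraries and 0.0166 CPM (read counts scaled to a common library size) in the other. ANKRD37, another target of HIF, was between 0.0690 and 0.314 CPM, and neither gene was tested.

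The cells were A673, a line from Ewing sarcoma with the EWSR1-FLI1 fusion. In A673/TR/shFEZF1 cells a tetracycline repressor is expressed constitutively and doxycycline releases an shRNA against the transcription factor FEZF1, so all 8 libraries come from cells that carry both constructs. RNA was sequenced from 4 untreated cultures (control) and from 4 cultures given doxycycline at 1 µg/mL for 72 h (dox), each group holding 1 culture of the polyclonal population and 1 each of clones 3, 5 and 6. The clones had been picked for strong loss of FEZF1 protein, all cells descend from 1 clone expressing the repressor, and 1 shRNA sequence was used. Because no culture analysed here received the drug without the shRNA, the drug and the knock-down cannot be told apart. The labels name no low-oxygen treatment.

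Glycolysis splits glucose into pyruvate, which lactate dehydrogenase can turn into lactate for export from the cell. The hypoxia-inducible factors (HIF) are pairs of an unstable alpha subunit (HIF1A or EPAS1) and the stable subunit ARNT. When oxygen is present, prolyl hydroxylases of the EGLN family mark the alpha subunits for destruction, and when oxygen is short the surviving subunits bind a short DNA core in promoters and enhancers and raise glucose transporters, glycolytic enzymes, VEGFA, BNIP3 and many other genes. HIF activity is set mostly at the level of protein stability, which RNA-seq does not measure.

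Values are CPM scaled by TMM, which serve to compare libraries for 1 gene, or TPM, the deposited transcript shares summed per gene with no TMM scaling, which allow for transcript length and serve to compare genes. A gene was called when its adjusted p from edgeR's quasi-likelihood test, with origin as a block, was below 0.05. Depth was 26719886 to 42422421 assigned reads per library. FEZF1 was 96.4, 70.5, 107 and 74.4 CPM in the control cultures of the polyclonal population and clones 3, 5 and 6, and 60.6, 42.9, 60.8 and 36.4 CPM in the corresponding dox cultures. FEZF1 was thus lower in all pairs (log2 fold change -0.81, SE 0.0726, edgeR adjusted p = 0.00594; exact 2-sided permutation test of 4 against 4 cultures, p = 0.0286, the smallest that test can give). The 7 markers of the Ewing line were all detected, whereas 5 of 7 blood, epithelial and endothelial markers were under 1 CPM in every library. With the treatment 2 Ewing markers were called higher (NR0B1, log2 fold change 0.67, and NKX2-2, 0.30) and 2 lower (LIPI, -0.30, and GLI1, -0.77), and the summed CPM of the 7 was 1402 to 2859 in control and 1363 to 3077 in dox cultures. The epithelial marker EPCAM was higher in 4 of 4 pairs and not called (1.90, edgeR adjusted p = 0.0501), at no more than 2.92 CPM. The blood marker CD68 was detected in every library, at 3.98 to 11.1 CPM. It too was higher in 4 of 4 pairs and not called (0.25, edgeR adjusted p = 0.301). The part of these markers in the changes of the members was not tested.

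The glycolytic enzymes were among the abundant transcripts of these cells. GAPDH, which oxidises glyceraldehyde 3-phosphate, had a mean of 8517 TPM over the 8 libraries, with a range of 7628 to 9579. The enolase ENO1 followed at 3255 TPM, and LDHB, PKM, TPI1 and ALDOA had means between 1397 and 1781 TPM. Together the 17 enzymes took 1.93%, 2.29%, 2.09% and 1.81% of all TPM in the control cultures of the polyclonal population and clones 3, 5 and 6, and 2.03%, 2.25%, 2.107% and 1.95% in the dox cultures. The range of the dox cultures lay within that of the controls. Of the other members, HIF1A was the most abundant (106 TPM), followed by the lactate transporter SLC16A1 (73.1 TPM), BNIP3 (68.5 TPM), VEGFA (65.2 TPM) and BNIP3L (62.4 TPM). EPAS1, EGLN3 and the lactate exporter SLC16A3 had means of 1.19, 1.19 and 1.04 TPM.

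The first question was whether members changed upon doxycycline when each clone was compared with itself. Of the 37 members tested, 4 were called (10.8%), against 7.63% of all genes tested (1221 of 15993). BNIP3L, VEGFA and P4HA2 were higher and SLC2A3 was lower. The median log2 fold change was 0.08 over the members and 0.004 over all genes tested. A single direction in 4 of 4 pairs was seen for 13 members (10 higher and 3 lower), or 35.1%, close to the 33.3% of all genes. Control and dox cultures did not overlap for 1 member, SLC2A3, that is for 2.70% of members against 4.94% of all genes. Over all members these shares are near those of all genes, though 0% of the enzymes and 20% of the other members tested were called. Among genes at 10 CPM or more, 4 of 29 members were called, against 998 of 9456 genes. The 4 calls depended on the pairing by origin, because without the replicate block no member was called (1 member, SLC2A3, had an unadjusted p under 0.05) and 1 gene was called in all. DESeq2 without the block called SLC2A3 alone, and DESeq2 with the block called 8 members. Without clone 5 no member was called and 175 genes were called in all.

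**Figure D1:**
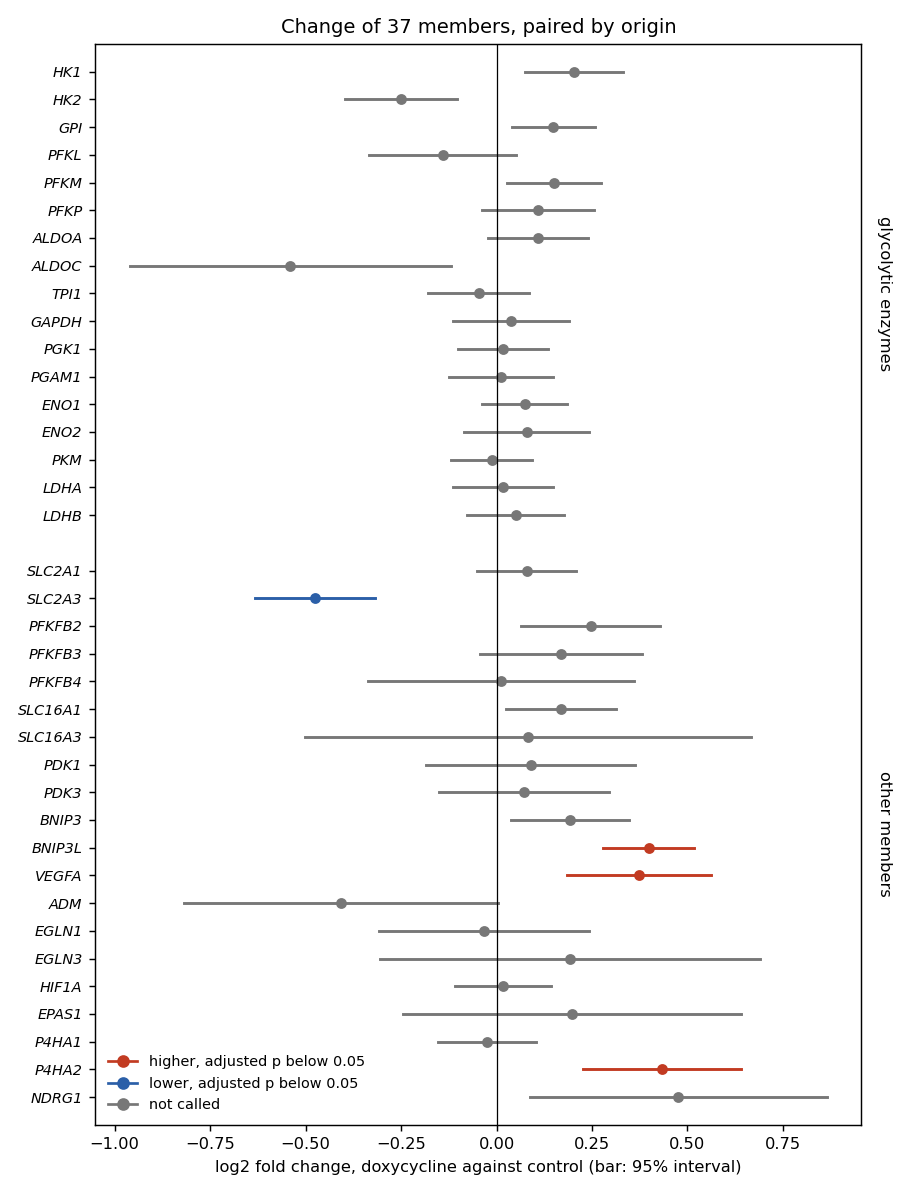
Log2 fold change of each tested member, dox against control (horizontal axis), from the fit paired by origin; points are estimates, bars are 95% intervals, and colour marks the 4 calls. The enzymes, above, lie mostly near 0, and the calls (SLC2A3 at -0.48, VEGFA at 0.37, BNIP3L at 0.40, P4HA2 at 0.43) are among the other members, below.

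None of the 17 glycolytic enzymes was called in the main edgeR fit, against 7.63% of all genes, and 5 (29.4%) had an unadjusted p under 0.05, near the 24.8% of all genes. All 17 were at 10 CPM or more, a level at which 998 of 9456 genes were called. DESeq2 with the block called 4 of them (HK1 and GPI higher, HK2 and ALDOC lower), and DESeq2 without it called 0. With other filters edgeR called HK2 (1 count in any library) or HK1 and HK2 (10 counts in every library). Without the polyclonal population edgeR called ALDOC and HK2. The median log2 fold change of the enzymes was 0.04, and 14 of 17 were within 0.2 of 0. The 95% intervals of 12 enzymes lay within a change of 20% in either direction. Over all 17 the intervals reached from -48.6% for ALDOC to 25.9% for HK1. Each step of the pathway is taken below in order.

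Glucose enters through the transporters SLC2A1 (GLUT1) and SLC2A3 (GLUT3), the latter with a high affinity for glucose and best known from neurons. SLC2A3, on chromosome 12 (GRCh38, 7919230 to 7936187), was 49.0, 51.5, 39.2 and 49.0 CPM in the control cultures of the polyclonal population and clones 3, 5 and 6, and 37.2, 33.2, 28.7 and 36.6 CPM in the dox cultures. Every dox culture was below every control culture. SLC2A3 thus fell by 28.1% (95% interval -35.5% to -19.8%; log2 fold change -0.48, SE 0.0678, edgeR adjusted p = 0.0116), from 47.2 ± 5.45 to 33.9 ± 3.91 CPM (SD, n = 4). The call was lost without clone 5 (adjusted p = 0.0518) and without the block (adjusted p = 0.335), and it was kept in the other 10 alternatives. SLC2A1, the ubiquitous transporter, was 70.2 ± 8.19 CPM in control and 74.0 ± 5.497 CPM in dox cultures (log2 fold change 0.08, adjusted p = 0.437). Of the summed TPM of the 2 transporters, SLC2A3 made 40.1%, 35.4%, 33.6% and 39.0% in control and 31.5%, 26.1%, 25.6% and 31.3% in dox cultures. The share was lower in 4 of 4 pairs and did not overlap between groups, with an exact permutation p of 0.0286 that became 0.2 after adjustment over the 14 shares examined.

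Hexokinase traps glucose in the cell as glucose 6-phosphate, with HK1 as the form of most tissues and HK2 as the inducible form of muscle and many tumours. HK2, on chromosome 2 (74834127 to 74893359), was 101, 119.8, 117 and 83.4 CPM in control and 96.3, 99.2, 94.0 and 65.2 CPM in dox cultures. It was lower in 4 of 4 pairs, by least in the polyclonal population, and missed the threshold (log2 fold change -0.25, SE 0.0634, edgeR adjusted p = 0.0540). HK1, on chromosome 10 (69270000 to 69401882), was 249, 309, 240.2 and 237 CPM in control and 298, 322, 293 and 273 CPM in dox cultures. It was higher in 4 of 4 pairs, by least in clone 3, and also missed the threshold (log2 fold change 0.20, SE 0.0557, adjusted p = 0.0677). Over the alternatives the adjusted p ranged from 0.00597 to 0.872 for HK2, called in 4 of 12, and from 0.0208 to 0.823 for HK1, called in 2 of 12.

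Because the pair of hexokinases differed in sign, the share of HK2 in their summed TPM moved further than either gene. It was 20.3%, 19.7%, 23.4% and 18.2% in control and 16.9%, 16.3%, 16.8% and 13.1% in dox cultures. All 4 dox shares were below all 4 control shares, and the means were 20.4 ± 2.19% and 15.8 ± 1.80% (SD, n = 4). The exact permutation p was 0.0286, the smallest that 4 against 4 cultures allow, and 0.2 after adjustment over 14 shares. This test does not use the pairing by origin, under which 8 of the 14 shares had 1 direction in 4 of 4 pairs; with 4 pairs a paired exact test cannot go below 0.125. None of the 14 shares passed the adjustment. With 0.0286 as the smallest possible p, passing would have taken many of the 14 shares at that minimum together. The adjusted values therefore cannot decide whether a single share changed. The shares of HK2 and SLC2A3 stand as the pair without overlap in this set and not as calls.

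GPI, which turns glucose 6-phosphate into fructose 6-phosphate and lies on chromosome 19 (34359718 to 34402413), was 449.8, 559, 612 and 398 CPM in control and 500.2, 599.5, 699 and 442 CPM in dox cultures. The gain was small and present in 4 of 4 pairs (10.9%, 95% interval 2.82% to 19.6%; edgeR adjusted p = 0.0983). Of the phosphofructokinases, which commit sugar to glycolysis, PFKM was also higher in 4 of 4 pairs (log2 fold change 0.15, adjusted p = 0.132), while PFKP was 0.11 and PFKL -0.14 (adjusted p = 0.338 and 0.348). PFKP, the platelet form, made 49.4 ± 2.76% of the summed phosphofructokinase TPM in control and 51.0 ± 2.34% in dox cultures, higher in 4 of 4 pairs (exact permutation p = 0.457). Their regulators PFKFB2, PFKFB3 and PFKFB4 set the level of fructose 2,6-bisphosphate, the activator of phosphofructokinase. PFKFB2 was 17.6, 18.5, 14.8 and 17.2 CPM in control and 20.2, 20.8, 18.0 and 21.8 CPM in dox cultures, higher in each pair (log2 fold change 0.25, SE 0.0781, adjusted p = 0.1001). With curated transcripts only, the log2 fold change of PFKFB2 was 0.12 (edgeR adjusted p = 0.506). PFKFB3, a form that hypoxia induces, was higher in clones 3 and 5 and slightly lower in the polyclonal population and clone 6 (0.17, adjusted p = 0.301).

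The later enzymes differed little. TPI1, GAPDH, PGK1, PGAM1, ENO1, ENO2, PKM, LDHA and LDHB had log2 fold changes between -0.05 and 0.08, with adjusted p from 0.400 to 0.928. For PKM, the pyruvate kinase, the 95% interval of the change was -7.88% to 6.60%, and for PGK1 it was -6.75% to 9.84%. Among the aldolases, ALDOA was 1272 ± 223 CPM in control and 1361 ± 143 CPM in dox cultures, whereas the far less abundant ALDOC was 23.6, 15.2, 19.6 and 23.3 CPM in control and 25.6, 9.50, 8.93 and 16.3 CPM in dox cultures. ALDOC was thus lower in the 3 clones and not in the polyclonal population (log2 fold change -0.54, adjusted p = 0.115). The isozymes of the last step differed between groups by less than the spread, LDHB making 79.5 ± 1.19% of lactate dehydrogenase TPM in control and 79.9 ± 1.17% in dox cultures. PKM1-type transcripts were 2.12 ± 0.733% and 2.59 ± 0.825% of PKM1- and PKM2-type TPM (exact permutation p = 0.457), higher in 4 of 4 pairs. GAPDH, ENO1, PGK1, PGAM1, TPI1, LDHA and LDHB have processed pseudogenes that could share reads with them, so small differences in their sums are uncertain.

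Of the 20 other members tested, 4 were called (20%), all of them named above, against 7.63% of all genes tested. An unadjusted p under 0.05 was seen for 8 (40%), against 24.8% of all genes. A single direction in 4 of 4 pairs was seen for 45% (7 higher and 2 lower), against 33.3% of all genes. BNIP3L and BNIP3 are receptors on the outer mitochondrial membrane that direct mitochondria to autophagy. BNIP3L was 114, 86.4, 84.3 and 154 CPM in the control cultures of the polyclonal population and clones 3, 5 and 6, and 141, 117, 115 and 203 CPM in the dox cultures. The increase was of similar size in each origin, with log2 ratios of 0.31, 0.44, 0.44 and 0.40, although clone 6 without the drug was above all other dox cultures. The fitted change was 31.8% (95% interval 21.3% to 43.2%; log2 fold change 0.40, SE 0.0516, edgeR adjusted p = 0.00875). BNIP3 was higher in 4 of 4 pairs too, with a smaller log2 fold change that was not called (0.19, adjusted p = 0.125). The BNIP3L call was lost without clone 5 (adjusted p = 0.0625) and without the block by edgeR (0.849) and DESeq2 (0.767).

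VEGFA, the vascular endothelial growth factor, lies on chromosome 6 (43770211 to 43786487). It was 125, 89.5, 119.8 and 77.6 CPM in control and 154, 136, 166 and 84.1 CPM in dox cultures. Clone 6 stood apart with the lowest level in both groups and the smallest ratio (log2 0.12, against 0.29, 0.60 and 0.47 in the polyclonal population and clones 3 and 5). In TPM, VEGFA of clone 6 was not higher with the drug (41.5 TPM in the control and 41.2 TPM in the dox culture). The fitted change was 29.4% (95% interval 13.6% to 47.5%; log2 fold change 0.37, SE 0.0810, edgeR adjusted p = 0.0374). This was the least stable of the calls together with P4HA2, each being kept in 5 of 12 alternatives. The VEGFA call was lost with an offset for effective transcript length (adjusted p = 0.0523), with curated transcripts only (0.0797), without the block by edgeR (0.836) and DESeq2 (0.732), and without the polyclonal population, clone 3 or clone 5 (0.0814, 0.0895 and 0.172). ADM, which encodes the vasodilator adrenomedullin, was lower in 4 of 4 pairs at a low level, with means of 2.58 and 1.95 CPM (log2 fold change -0.41, adjusted p = 0.205). The 2 secreted factors thus had opposite signs.

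P4HA1 and P4HA2 are catalytic subunits of the prolyl 4-hydroxylase that stabilises collagen. P4HA2, on chromosome 5 (132190147 to 132227853), was 13.1, 22.02, 9.39 and 11.5 CPM in control and 18.6, 26.1, 13.6 and 15.8 CPM in dox cultures. It was higher in each pair, by 35.0% in the fit (95% interval 17.1% to 55.7%; log2 fold change 0.43, SE 0.0887, edgeR adjusted p = 0.0304), while the groups overlapped because clone 3 without the drug exceeded 3 dox cultures. The more abundant P4HA1 was 77.9 ± 19.4 CPM in control and 76.6 ± 18.3 CPM in dox cultures (log2 fold change -0.02, adjusted p = 0.834). The P4HA2 share of the pair was 9.63 ± 1.602% in control and 12.7 ± 1.96% in dox cultures, higher in 4 of 4 pairs (exact permutation p = 0.0857, adjusted p = 0.4). The P4HA2 call was lost when any of the 4 origins was left out, with adjusted p between 0.0553 and 0.142, with curated transcripts only (0.0572), and without the block by edgeR (0.911) and DESeq2 (0.870).

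The remaining transporters, regulators and HIF targets that were tested were not called. NDRG1, a stress-responsive gene, was higher in 4 of 4 pairs with means of 3.64 and 5.004 CPM (log2 fold change 0.48, edgeR adjusted p = 0.130), and the lactate transporter SLC16A1 was higher in 4 of 4 pairs (0.17, adjusted p = 0.144). PDK1 and PDK3, the kinases that shut off pyruvate dehydrogenase, differed by 0.09 and 0.07 (adjusted p = 0.697 and 0.699), PFKFB4 by 0.01 (adjusted p = 0.974), and SLC16A3 by 0.08 (adjusted p = 0.880). The sensor genes EGLN1 and EGLN3 differed by -0.03 and 0.19 (adjusted p = 0.899 and 0.638). The EGLN1 sum held only 16.8% of the reads that the authors' deposited mean implies, from the 2 transcripts that matched its symbol, and PDK1 held 87.5%, so the values of these genes are incomplete. The sign of the PDK1 change turned with curated transcripts only.

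The alpha subunits themselves were not called. HIF1A was 222, 257, 209 and 291 CPM in control and 221, 274, 222 and 271 CPM in dox cultures, with a change of 1.198% (95% interval -7.26% to 10.4%; edgeR adjusted p = 0.884). EPAS1 was 2.81, 8.10, 0.726 and 1.69 CPM in control and 3.28, 9.39, 1.16 and 1.39 CPM in dox cultures. Both libraries of clone 3 were far above the other 6, and the interval of its change was wide (-15.6% to 55.9%; adjusted p = 0.583).

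From a wider list of 58 genes of the same pathways outside the members, 47 were tested and 5 were called (10.6%, against 7.63% of all genes), all higher in dox cultures. The median log2 fold change of the 47 was 0.03. DDIT4, an inhibitor of mTORC1 that responds to hypoxia and to other stresses, went from 16.5 ± 1.87 to 32.4 ± 7.96 CPM (log2 fold change 0.95, edgeR adjusted p = 0.00611). STC2, a secreted stanniocalcin, went from 28.1 ± 3.54 to 43.4 ± 4.44 CPM (0.63, adjusted p = 0.00635). KDM3A, a demethylase of histone H3, rose from 105 ± 9.12 to 133 ± 11.9 CPM (0.35, adjusted p = 0.0358), and EGLN2, a further HIF prolyl hydroxylase, rose from 81.8 ± 11.3 to 97.8 ± 11.2 CPM (0.26, adjusted p = 0.0439). SLC2A12, a glucose transporter of low abundance here, rose from 1.33 ± 0.786 to 2.65 ± 0.947 CPM (1.08, adjusted p = 0.0268). DDIT4 and STC2 were called in 11 of 12 alternatives, the exception being the fit without the block, in which 0 of the 47 were called. KDM3A and SLC2A12 were called in 6 of 12 alternatives each, and both were lost without the block by edgeR and DESeq2, with curated transcripts only, and without clone 3, 5 or 6. EGLN2 was called in 4 of 12, and was lost in the same settings, with DESeq2 size factors and without the polyclonal population. ARNT, the partner of the alpha subunits, was 74.6 ± 5.65 and 83.3 ± 10.3 CPM (0.15, adjusted p = 0.155), and VHL, which targets hydroxylated HIF for degradation, was 91.4 ± 5.72 and 98.5 ± 6.24 CPM (0.11, adjusted p = 0.378). Markers of proliferation moved with the treatment: 2 of 6 (PCNA and CCNB1) were called lower, where 7.63% of all genes were called in either direction. All 6 were lower in 4 of 4 pairs, and 33.3% of all genes had 1 direction in 4 of 4 pairs. The summed CPM of the 6 markers was 2390 to 2844 in control and 2004 to 2381 in dox cultures. Their part in the changes of the members was not tested.

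Differences between origins were called for more members than the treatment was. A test of the 3 origin terms called 23 of the 37 members (62.2%), against 39.4% of all genes. Among genes at 10 CPM or more, where the test has more reads to work with, 20 of 29 members were called, against 46.9% of all such genes. Of the enzymes 11 of 17 were called, 8 of them with their lowest mean in clone 6. How many of all genes called between origins were lowest in clone 6 was not counted, so these 8 have no background to be set against. The pyruvate kinase PKM had a mean of 2696 CPM in clone 3 and of 1737 CPM in clone 6, its lowest (edgeR adjusted p = 0.00164). GPI was highest in clone 5 at 656 CPM and lowest in clone 6 at 420.3 CPM (adjusted p = 0.00174). LDHB went the other way, with its highest mean, 1464 CPM, in clone 6 and its lowest, 1136 CPM, in the polyclonal population (adjusted p = 0.0293). GAPDH was not called (adjusted p = 0.195).

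Among the other members BNIP3L was highest in clone 6, with 179 CPM, and lowest in clone 5, with 99.4 CPM, a ratio of 1.80 (edgeR adjusted p = 0.000639). VEGFA was lowest in clone 6, at 80.9 CPM, and highest in clone 5, at 143 CPM (adjusted p = 0.00567). The widest ratio was that of EPAS1, 9.26-fold between clone 3 (8.74 CPM) and clone 5 (0.944 CPM), with an adjusted p of 0.000699. P4HA1 and P4HA2 were also highest in clone 3, at 104 and 24.1 CPM. SLC2A1 and SLC2A3 were not called between origins (adjusted p = 0.0538 and 0.0550), and SLC2A3 was the one member called for the treatment and not between origins. Each origin has 1 library per treatment, and its mean therefore rests on 2 libraries.

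**Figure D2:**
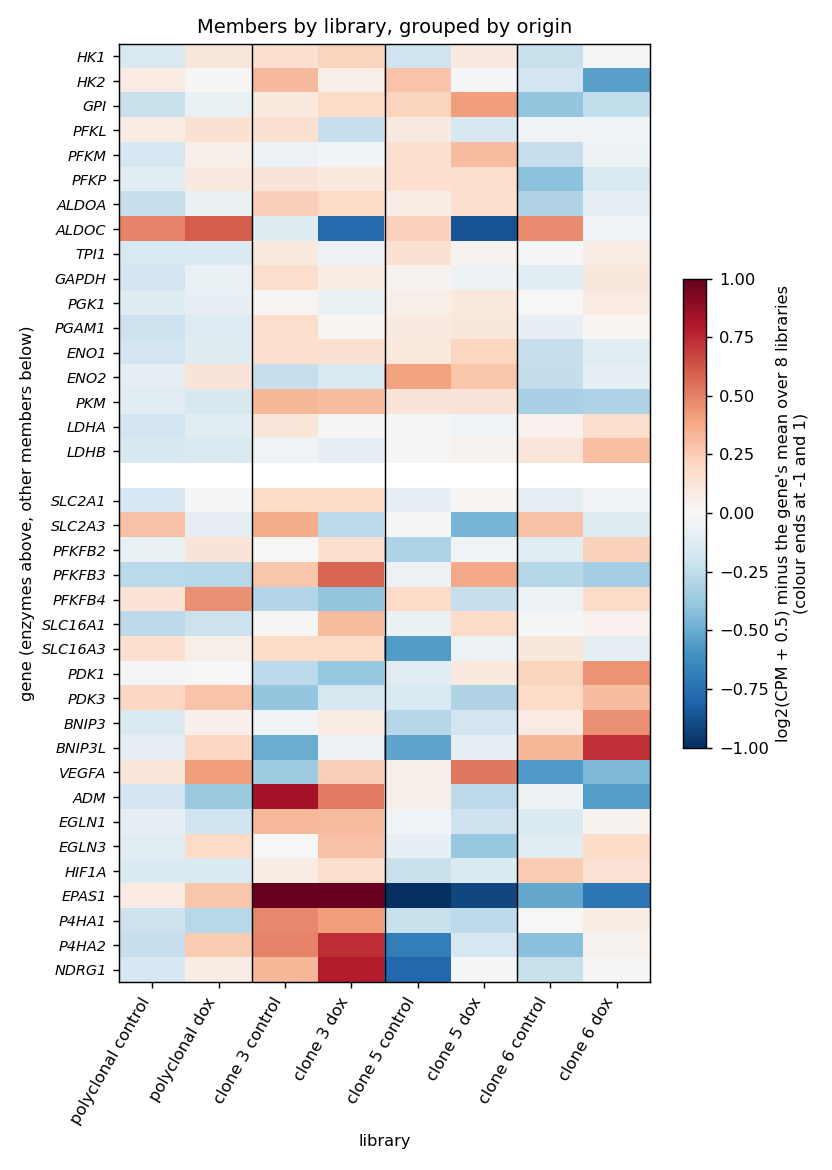
Log2(CPM + 0.5) of each tested member minus its mean over the 8 libraries (colour, ends at -1 and 1), with the control and dox culture of each origin side by side and enzymes above the other members. Blocks of 1 origin are seen for EPAS1, P4HA1, PKM, VEGFA and BNIP3L, and the step from control to dox within each origin is seen for SLC2A3 and BNIP3L.

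HIF binds the core ACGTG or GCGTG. Both were sought on both strands in RefSeq windows (GRCh38.p14) from 250 bases before to 50 bases after the start sites that the table lists, where an ACGTG may overlap its own reverse complement CACGT. Windows were found for 33 members, not for SLC2A3, VEGFA, BNIP3L, PFKFB2, SLC16A1 and NDRG1. A core was present in at least 1 window of 30 of these 33 members (90.9%), against 52.4% of 27305 genes. ACGTG alone was present in at least 1 window of 60.6% of members and of 24.9% of genes. Members had more windows per gene, which favours them in these counts. Counted by window, a core was present in 66.7% of 60 member windows and in 48.4% of 35116 windows of all genes. The members also include genes listed because they are targets of HIF. For 24 of the 33 members a window lay at the outermost start of the gene, whereas the 1 window of P4HA2, with 0 cores, lay 762 bases inside it. Members can have several start sites, and a match of letters is not a bound site. The windows of 3 members at the outermost start of their gene are shown because they hold several cores while the members were not called: BNIP3 and the enzymes PGK1 and LDHA. Capitals mark the cores on either strand.
PGK1 (chrX:78103998-78104297, plus strand): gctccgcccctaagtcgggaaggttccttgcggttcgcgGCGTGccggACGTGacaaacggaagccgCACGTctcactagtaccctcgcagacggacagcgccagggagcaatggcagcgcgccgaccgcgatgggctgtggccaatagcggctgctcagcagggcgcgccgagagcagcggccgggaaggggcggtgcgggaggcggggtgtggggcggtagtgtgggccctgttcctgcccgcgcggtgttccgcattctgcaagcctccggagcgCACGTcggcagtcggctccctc
LDHA (chr11:18394313-18394612, plus strand): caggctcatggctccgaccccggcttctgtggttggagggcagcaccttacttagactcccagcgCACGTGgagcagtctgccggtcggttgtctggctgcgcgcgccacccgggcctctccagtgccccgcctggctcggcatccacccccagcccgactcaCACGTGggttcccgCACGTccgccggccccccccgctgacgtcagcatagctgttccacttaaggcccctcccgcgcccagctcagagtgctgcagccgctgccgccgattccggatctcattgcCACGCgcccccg
BNIP3 (chr10:131981874-131982173, minus strand): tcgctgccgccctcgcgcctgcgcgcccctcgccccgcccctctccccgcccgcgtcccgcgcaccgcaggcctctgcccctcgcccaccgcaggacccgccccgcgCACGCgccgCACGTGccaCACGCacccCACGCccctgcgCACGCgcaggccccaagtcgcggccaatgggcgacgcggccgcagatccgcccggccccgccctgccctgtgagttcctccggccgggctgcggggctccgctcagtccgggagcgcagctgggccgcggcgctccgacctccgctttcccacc
The windows of PGK1, LDHA and BNIP3 held 4, 6 and 6 cores. The window with the most cores held 6 for HK2, which has 2 listed start sites, and 1 for HK1, which has 7. A link between the number of cores and the changes was not tested.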

How the data were processed

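RNA from the 8 cultures was sequenced from stranded mRNA libraries. Reads were quantified by the authors with Salmon against RefSeq transcripts of GRCh38, and they deposited estimated counts and TPM for 158867 transcripts per library; the strand setting is not given in the sources used here. They also deposited a DESeq2 table, of which only the mean of normalized counts (a signal) was used, as a check of matching; its fold changes and p-values were not used. The deposited file of the clone 5 control has its transcripts in another order than the other 7, and rows were joined by name.

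Of the transcripts, 115325 (72.6%) matched a RefSeq symbol, with 89.9% to 91.1% of the reads. For 36 of 39 members the sum was within 5% of the authors' mean. Sums were rounded, filtered (filterByExpr), scaled by TMM and tested in edgeR 4.0.16 (R 4.3.3) with treatment and origin in the model, with Benjamini-Hochberg adjustment over 15993 genes at 0.05. The origin terms were tested in the same fit. Origin pairs the cultures because both come from the same cells: deviations from the group means correlated at 0.406, 0.546, 0.590 and 0.582 within the polyclonal population and clones 3, 5 and 6, and at -0.395 to 0.179 between origins. Shares of summed TPM were compared by exact permutation tests (2-sided). A pseudocount of 0.5 was used for the log2 ratio of each pair. Nothing says that cultures of 1 origin were repeated. With the block, the p-values for the treatment measure how the difference between dox and control varies over these 4 origins, with information shared between genes. The permutation tests, which do not use the pairing, measure the spread between the cultures of each group.

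Alternatives were the fit with no replicate block, DESeq2 1.42.0 with and without it, DESeq2 size factors, an offset for effective length, filters at 1 count in any library and at 10 in all, curated transcripts only, and leaving out each origin. In simulated data with 15993 genes and 200 changed ones, edgeR with the block found 96% at a log2 change of 1 and 62% at 0.5 with 10 false of 168 calls, and without the block 57% and 0%. These data were drawn from the fit with the block, with the same change in every origin, which favours that fit. They therefore cannot decide between the fits. The changed genes were taken from the more abundant ones. The members, lists and tests were chosen with earlier results of these data known. Named with full values were the called members, the next by p-value up to 8, HIF1A, EPAS1 and FEZF1; other members that are named were picked after their values were seen. Python 3.11.15, pandas 2.3.3 and scipy 1.17.1 were used.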

Additional observations from a re-analysis of the deposited data

Results flagged for a closer look

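In 4 of 104 groups of 4 cultures 1 value stood far from the other 3 by Dixon's criterion, where chance gives about 5.2 (1 in 20). HK1 was 309 CPM in the clone 3 control, against 237 to 249 CPM in the other controls. HK2 was 65.2 CPM in the dox culture of clone 6, against 94.0 to 99.2 CPM. SLC16A3 was 0.633 CPM in the clone 5 control, against 1.31 to 1.401 CPM. NDRG1 was 7.44 CPM in the dox culture of clone 3, against 4.05 to 4.36 CPM.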

How the results depend on the processing

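The number of members called, 4, became 0 with no replicate block, 8 and 1 in DESeq2 with and without the block, 2 with curated transcripts only, and 0 to 4 without 1 origin. For the enzymes the 0 became 4 in DESeq2 with the block, 1 and 2 with the looser and the stricter filter, and 0 to 2 without 1 origin. For the other members the 4 became 0 with no block, 1 in DESeq2 without it, 2 with curated transcripts, and 0 to 3 without 1 origin. Over all genes the 1221 became 1, 1920, 232 and 493 in these 4 settings in turn, and 175 to 699 without 1 origin. Pathway genes, 5 called, became 0, 2 (DESeq2 without the block) and 2 (curated), and 2 to 4 without 1 origin. Members called between origins, 23, became 15 with curated transcripts and 14 to 20 without 1 origin. The share of all genes called between origins fell too, from 39.4% to 27.1% with curated transcripts and to 18.1% to 33.5% without 1 origin. FEZF1 kept its direction and was no longer called with no block (-0.80). Of 444 pairs of a member and an alternative, 396 kept direction and side of the threshold and 20 turned sign, all for genes that were uncalled and near 0 in the main fit. PGAM1 was -0.00075, -0.0062 and -0.00071 with DESeq2 (with and without the block) and its size factors, and -0.018 to 0.068 without 1 origin. PFKFB4 was -0.00072 and -0.00065 with DESeq2 with the block and its size factors, and -0.10 to 0.15 without 1 origin; HIF1A was -0.00022 in DESeq2 without the block and -0.023 to 0.058. Without 1 origin GAPDH ranged from -0.024 to 0.085, PGK1 from -0.0094 to 0.0525, LDHA from -0.022 to 0.059 and SLC16A3 from -0.15 to 0.21. PDK1 was -0.26 with curated transcripts, against 0.09 in the main fit. The PDK3 share was -0.35 percentage points in counts and -1.40 to 4.42 without 1 origin, and the ENO2 share -0.065 to 0.097. The causes were not tested. Changes of the low genes SLC16A3, EGLN3, ADM and EPAS1 are limited by depth.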
